A study of Mus musculus with 4 samples.

Results

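The genes examined are osteoblast genes in the skin of mouse embryos whose epithelium makes a stabilised beta-catenin. They were set by a list of 7 symbols, the transcription factors Sp7 and Runx2, the bone matrix proteins Ibsp, Spp1 and Bglap, the phosphatase gene Alpl and the peptidase-like gene Phex. In the platform's annotation 4 of the 7, Ibsp, Sp7, Alpl and Phex, carry a probe set of their own, 6 probe sets in all of the 45037 on the array besides controls. Runx2, Spp1 and Bglap were not analysed here. The genes were chosen by their signals on these same arrays, which were known to be higher in mutant than in control skin, so for them that contrast is described and not tested. The annotation names 18193 genes on the array.

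Skin was dissected at E14.5, in mid-gestation, with epidermis and dermis together, and the RNA of each embryo was read on an Affymetrix expression array of its own. The 2 mutant embryos carried KRT14-Cre and Ctnnb1(Ex3)fl/+, and the 2 controls were their littermates, whose genotype the labels do not spell out further. KRT14-Cre acts in keratinocytes through a keratin promoter, so the allele recombines in epithelium and not throughout the dermis. In the mutants Cre removes the exon of 1 Ctnnb1 copy that holds the degradation signals of beta-catenin, the effector of canonical Wnt signalling. Array medians ranged over 30.4 to 32.0 in the mutants and 27.7 to 31.3 in the controls. Ctnnb1, whose probe set is not placed relative to the removed exon here, read 6197 and 5773 in the mutants and 6302 and 5335 in the controls. The scanner files name epidermis as the sample, while the fibrillar collagen gene Col1a1, made by dermal fibroblasts and by osteoblasts, read 2983 and 2283 in the mutants and 3418 and 3298 in the controls, and Krt14 of basal keratinocytes read 934 and 1446 in the mutants and 1841 and 2528 in the controls. Scanning took place on 1 day for all 4 arrays. In whole skin, fewer cells of a type and less RNA per cell cannot be told apart.

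Osteoblasts are mesenchymal cells that lay down a collagen matrix and mineralise it. Runx2 commits progenitors to the lineage and Sp7, also called osterix, acts after it. Mature cells secrete acidic, integrin-binding phosphoproteins such as bone sialoprotein, and carry on their surface an alkaline phosphatase that breaks down pyrophosphate, an inhibitor of mineral growth. Some of these genes are also used outside bone. Alkaline phosphatase in particular is a classical marker of the dermal papilla of the hair follicle.

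Promoter windows of the measured genes, whose shared direction was known when they were chosen, were taken from RefSeq (GRCm38.p6). Each window has 300 bases, from 250 before to 50 after an annotated start site. Sp7 had no entry in the promoter set used, so windows were taken for 3 of the 4 genes. They are given 5′ to 3′ on the gene's strand, with the matches to 4 short motifs in capitals: the RUNX core ACCACA, the TCF/LEF core CTTTGA, a homeodomain core TAATTG and the GC box GGGCGG, each searched on both strands.
Ibsp, chr5:104299037-104299336, plus strand: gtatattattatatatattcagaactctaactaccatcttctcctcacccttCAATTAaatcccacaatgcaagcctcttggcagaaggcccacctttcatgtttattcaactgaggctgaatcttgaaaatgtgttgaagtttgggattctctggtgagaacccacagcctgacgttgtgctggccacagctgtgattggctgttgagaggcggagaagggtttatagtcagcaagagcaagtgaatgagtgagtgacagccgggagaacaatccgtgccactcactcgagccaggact
Phex, chrX:157415237-157415536, minus strand: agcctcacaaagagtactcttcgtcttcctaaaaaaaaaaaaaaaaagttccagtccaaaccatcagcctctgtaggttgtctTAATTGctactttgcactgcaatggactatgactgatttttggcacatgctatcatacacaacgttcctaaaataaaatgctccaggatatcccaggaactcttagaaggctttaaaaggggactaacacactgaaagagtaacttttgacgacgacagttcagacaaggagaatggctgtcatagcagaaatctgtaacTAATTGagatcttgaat
Alpl, chr4:137796335-137796634, minus strand: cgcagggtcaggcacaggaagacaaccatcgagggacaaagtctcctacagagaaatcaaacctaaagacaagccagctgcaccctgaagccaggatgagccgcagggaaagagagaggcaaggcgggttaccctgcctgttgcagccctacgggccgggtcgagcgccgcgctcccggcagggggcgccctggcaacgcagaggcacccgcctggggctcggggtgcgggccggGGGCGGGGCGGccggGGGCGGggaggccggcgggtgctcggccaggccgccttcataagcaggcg
The Ibsp window holds 1 homeodomain core, on its reverse strand, and the Phex window holds 2. The Alpl window holds 3 GC boxes, of which 2 share a base, and a window at a further Alpl start site, chr4:137766426-137766725, holds none of the 4 motifs. None of the 4 windows holds the letters of the RUNX or TCF/LEF core. Of 32851 promoter windows of this length, 8.0% hold the homeodomain core, 35.7% the GC box, 16.8% the RUNX core and 16% the TCF/LEF core. These matches describe letters only.

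Ibsp, which encodes bone sialoprotein, was low in control skin and high in both mutants. Its brighter probe set read 741 and 321 in the mutants and 2.12 and 1.58 in the controls, or 531 ± 297 in mutant skin and 1.85 ± 0.383 in control skin (SD, n = 2 each). The other Ibsp probe set read 253 and 121 in the mutants and 4.62 and 6.07 in the controls. The groups did not overlap for either probe set, and in both it was mutant sample 1 that read higher of the mutants. The control signals lay under the offset of 7.71 that was added before taking logarithms, so the log2 differences of 5.70 and 3.82, mutant minus control, depend on that offset and ran from 4.82 to 7.43 and from 3.17 to 4.81 with offsets of 16 and 1. In the RefSeq order of protein-coding genes Ibsp lies on chromosome 5 in a run of matrix phosphoprotein genes, Dspp, Dmp1, Ibsp, Mepe and Spp1. Of its neighbours Dmp1, a phosphoprotein of late osteoblasts and osteocytes, read 97.2 and 31.8 in the mutants and 6.95 and 6.12 in the controls. Mepe, a phosphoprotein of osteocytes, read 3.96 and 1.39 in the mutants and 1.12 and 4.74 in the controls, with the groups overlapping. Dspp, best known from dentin, read 0.830 and 0.785 in the mutants and 0.547 and 0.537 in the controls, at the bottom of the scale on all arrays.

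Sp7, a zinc finger factor without which mice form no bone, differed less between the mutants than the other genes did. It read 235 and 185 in the mutants and 36.2 and 33.6 in the controls, or 210 ± 35.8 in mutant skin and 34.9 ± 1.85 in control skin (SD, n = 2 each). The lower mutant was 5.11-fold above the higher control. Its log2 difference was 2.35, and 2.18 when mutant sample 2 alone was set against the controls.

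Alpl, the tissue-nonspecific alkaline phosphatase, had the smallest difference among the brightest probe sets of the 4 genes. It read 113 and 83.0 in the mutants and 35.6 and 20.8 in the controls, or 97.8 ± 20.9 in mutant skin and 28.2 ± 10.5 in control skin (SD, n = 2 each). The groups did not overlap, and the log2 difference was 1.57. In the authors' deposited table Alpl is the only one of the 4 genes among 170 listed probe sets, with a fold of 13.57 for mutant over control. The same row of the authors' deposited table gives per-sample ratios of 0.975 and 0.989 for the mutants and 1.00 and 0.997 for the controls, which do not give that fold. For that table GCRMA is named and for the signals used here MAS5, so the 2 measures are unlike. The ratio of the group means above was 3.47.

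Phex, an endopeptidase-like membrane protein of osteoblasts and osteocytes whose loss in mice and humans causes low blood phosphate and soft bone, had the widest gap between the mutants. Its brighter probe set read 152 and 59.8 in the mutants and 26.4 and 9.63 in the controls, or 106 ± 65.5 in mutant skin and 18.0 ± 11.8 in control skin (SD, n = 2 each). Mutant sample 2 stood 2.27-fold above the higher control. The dimmer probe set, the only one of the 6 that did not pass the filter on dim signals, read 20.9 and 12.5 in the mutants and 0.747 and 3.63 in the controls. The log2 differences were 2.10 and 1.30. With offsets of 16 and 1 they ran from 1.78 to 2.50 for the brighter and from 0.84 to 2.60 for the dimmer probe set, whose controls both lie under the offset.

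**Figure D1:**
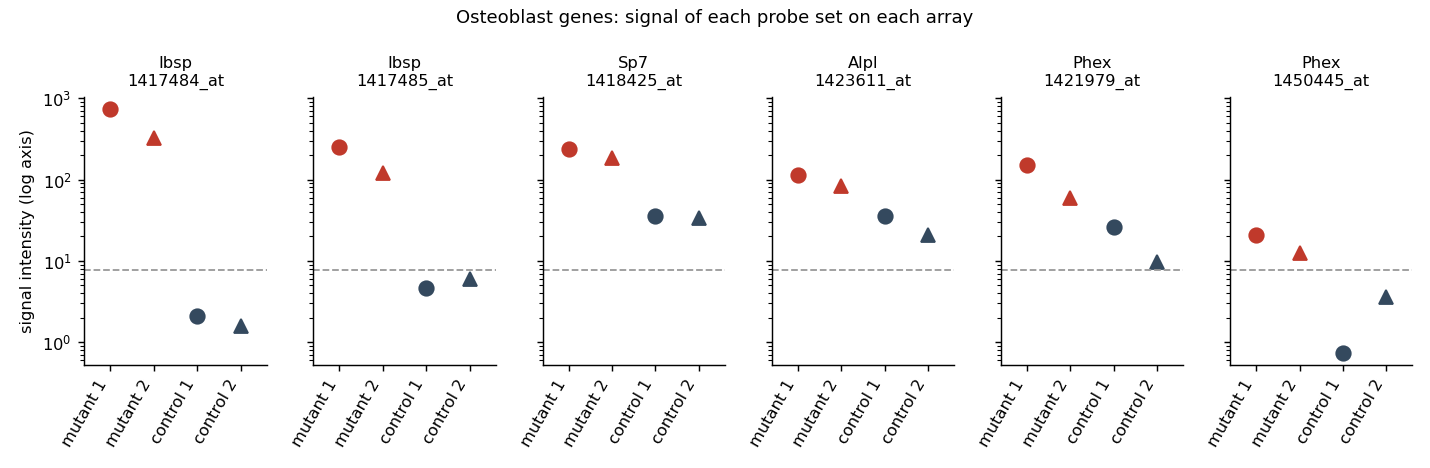
Signal intensity (log axis) of the 6 probe sets of Ibsp, Sp7, Alpl and Phex on each of the 4 arrays, mutants in red and controls in dark blue, circles for sample 1 and triangles for sample 2; the dashed line is the offset of 7.71 added before logarithms. In all 6 panels both mutants lie above both controls and mutant sample 1 lies above mutant sample 2.

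In all 6 probe sets both mutant arrays lay above both control arrays, as they did in 24.1% of all probe sets on the array. Of the 6, 5 passed the filter on dim signals (a mean signal of at least 31.1 over the 4 arrays). The control means of 5 of the 6 were under that filter value, so those that passed among them did so through their mutant signals.

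The 2 mutant embryos were not alike. Mutant sample 1 read above mutant sample 2 in all 6 probe sets, with ratios of the signals from 1.27 for Sp7 to 2.55 for the brighter Phex probe set. On the log2 scale 3 of the 6, both of Ibsp and 1 of Phex, were at least 2-fold higher in mutant sample 1, against 1.34% of all probe sets. The differences were 1.19 and 1.02 for Ibsp, 1.25 and 0.50 for Phex, 0.41 for Alpl and 0.34 for Sp7. Between the 2 controls the same genes differed by 0.08 and -0.16 for Ibsp, 0.98 and -0.42 for Phex, 0.60 for Alpl and 0.09 for Sp7, control sample 1 minus control sample 2. With 1 array on each side these differences have no test.

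Mutant sample 1 also held signal of cartilage, and there the gap between the mutants was much wider. All 25 cartilage genes of a list read higher in mutant sample 1 than in mutant sample 2, with a median signal ratio of 19.3 over the 21 that passed the filter. Of these, 20 were at least 2-fold higher in mutant sample 1, against 0.849% of all genes tested. The summed signal of the list was 16658 in mutant sample 1 and 1608 in mutant sample 2, against 929 and 790 in the controls. Matn1, a matrix protein of mature cartilage, read 1197 and 8.85 in the mutants and 6.59 and 4.87 in the controls. Col10a1, the collagen of hypertrophic cartilage, read 464 and 0.553 in the mutants and 2.61 and 0.455 in the controls. Mmp13, a collagenase of hypertrophic cartilage and of osteoblasts that was chosen after its values were seen, read 51.6 and 0.524 in the mutants and 0.838 and 0.353 in the controls.

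Some cartilage genes were above the controls in mutant sample 2 as well. Col2a1, the main cartilage collagen, chosen after its values were seen, read 37.7 there and 1948 in mutant sample 1, against 12.5 and 1.71 in the controls. Sox6 and Sox5, chosen in the same way, were below both controls in mutant sample 2. Sox6 read 50.7 there against 120 and 122 in the controls, and Sox5 read 8.49 against 25.9 and 17.0. Over the 21 cartilage genes the median log2 difference of mutant sample 2 from the mean of the controls was 0.66, and that of mutant sample 1 was 4.28. Both mutants were above both controls for 19 of the 25 genes, each read by its brightest probe set. The share over all probe sets, dim and unnamed ones included, was 24.1%, and no share over genes was computed. In the test across the array 2 of the 21 passed and rose, where 4.96% of all genes tested did, the fibrillar collagen gene Col11a1 (log2 fold change 2.87, adjusted p = 0.0468) and the matrilin gene Matn4 (log2 fold change 2.85, adjusted p = 0.0413). Col11a1 lost its call without mutant sample 1 (adjusted p = 0.0510) or control sample 2 (adjusted p = 0.103), and Matn4 without control sample 1 (adjusted p = 0.0663) or control sample 2 (adjusted p = 0.0662). Neither passed without the filter, without the variance trend or with a robust trend (adjusted p = 0.0770 to 0.252), nor did Col11a1 with an offset of 1 (adjusted p = 0.0501). What cartilage RNA contributes to the osteoblast signals of mutant sample 1 was not tested. On the log2 scale 4 of the 6 osteoblast probe sets were at least 2-fold higher in mutant sample 2 than in either control, against 1.91% of all probe sets. Of the named genes, 6 of 25 cartilage genes and 6 of 32 further bone genes were, against 2.75% of all genes. With mutant sample 2 as the only mutant, the log2 differences from the mean of the controls were 5.10 and 3.31 for Ibsp, 2.18 for Sp7, 1.47 and 1.05 for Phex and 1.37 for Alpl.

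**Figure D2:**
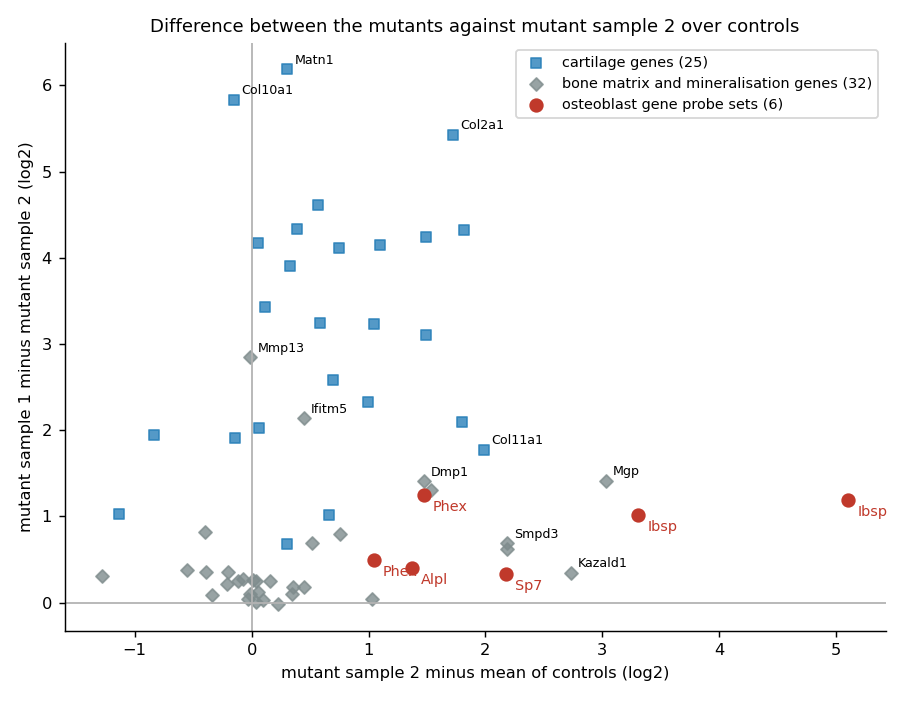
Difference between mutant sample 1 and mutant sample 2 (vertical axis, log2) against the difference of mutant sample 2 from the mean of the controls (horizontal axis, log2), with red circles for the 6 osteoblast probe sets, blue squares for 25 cartilage genes and grey diamonds for 32 further bone genes. The osteoblast probe sets have vertical values of 0.34 to 1.25 and horizontal values of 1.05 to 5.10, and the cartilage genes have vertical values of 0.68 to 6.18 and horizontal values of -1.14 to 1.99, so the 2 sets overlap on both axes.

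Further genes of bone matrix and mineralisation were followed on a list of 36 that leaves out the 7 symbols above; 32 have a probe set of their own and 28 passed the filter. Of these, 7 rose and 1 fell in mutant skin and 20 did not pass (limma adjusted p at 0.05). Over all 11549 genes tested, 4.96% rose and 3.78% fell. The median log2 fold change of the 28 was 0.25, and that of all genes tested was -0.02. The count of calls lay between 7 and 11 when 1 array was left out. It was 5 without the filter on dim probe sets, where Omd, Sgms2 and Dmp1 lost their calls (adjusted p = 0.0553, 0.0595 and 0.0910), and 15 with the sample number as a block.

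Mgp, matrix Gla protein, which keeps soft tissue and cartilage from calcifying, had the largest rise of the list. It read 1198 and 445 in the mutants and 80.4 and 27.1 in the controls, which is 3.74 higher on the log2 scale (SE 0.55, limma adjusted p = 0.0120). With a robust variance trend it did not pass (adjusted p = 0.0943). Kazald1, which encodes a secreted protein with a Kazal-type domain, read 180 and 140 in the mutants and 8.80 and 22.2 in the controls (log2 fold change 2.91, SE 0.31, adjusted p = 0.00379). Smpd3, a sphingomyelinase needed for mineralisation in mice, read 148 and 88.7 in the mutants and 15.7 and 11.5 in the controls (log2 fold change 2.53, SE 0.28, adjusted p = 0.00439). Omd, osteomodulin, a leucine-rich keratan sulfate proteoglycan of bone, read 91.2 and 56.8 in the mutants and 13.3 and 1.86 in the controls (log2 fold change 2.50, SE 0.42, adjusted p = 0.0190). The groups did not overlap for any of these 4, and mutant sample 1 was the higher mutant in each.

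The other 4 that passed were named after their values were seen. Sgms2, a sphingomyelin synthase, read 377 and 148 in the mutants and 46.9 and 45.1 in the controls and rose by 2.19 on the log2 scale (adjusted p = 0.0228). Dmp1 rose by 2.18 (adjusted p = 0.0374), a call that ended without mutant sample 1 (adjusted p = 0.0608), control sample 2 (adjusted p = 0.0777) or the variance trend (adjusted p = 0.0590). Dim control signals make the values of Dmp1 and Omd depend on the offset, from 1.71 to 2.92 and from 1.95 to 3.51 with offsets of 16 and 1. Serpinf1, which encodes the secreted factor PEDF, had nearly equal mutants, 1868 and 1815, against 1018 and 768 in the controls (log2 fold change 1.05, adjusted p = 0.00989). The gene that fell was Creb3l1, a transcription factor that drives collagen secretion in osteoblasts, with 101 and 80.0 in the mutants and 218 and 193 in the controls (log2 fold change -1.13, adjusted p = 0.0126).

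Among the members that did not pass were the bulk matrix genes of bone and dermis, Col1a1, Col1a2 and Sparc, named here after their values were seen. Col1a1 had a log2 fold change of -0.36 (adjusted p = 0.196) and Col1a2 one of -0.22 (adjusted p = 0.481). Sparc, osteonectin, had one of -0.11 (adjusted p = 0.704). Ifitm5, a small membrane protein of osteoblasts, had the widest gap between the mutants among the 28. It read 119 and 21.1 in the mutants and 23.3 and 6.67 in the controls, so that mutant sample 2 lay between the controls (adjusted p = 0.255). Where a gene had several probe sets the brightest stood for it. The others disagreed in call for Bgn (2 of 3 probe sets rose), Cdh11 (1 of 2 rose) and Col1a2 (1 of 3 fell).

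**Figure D3:**
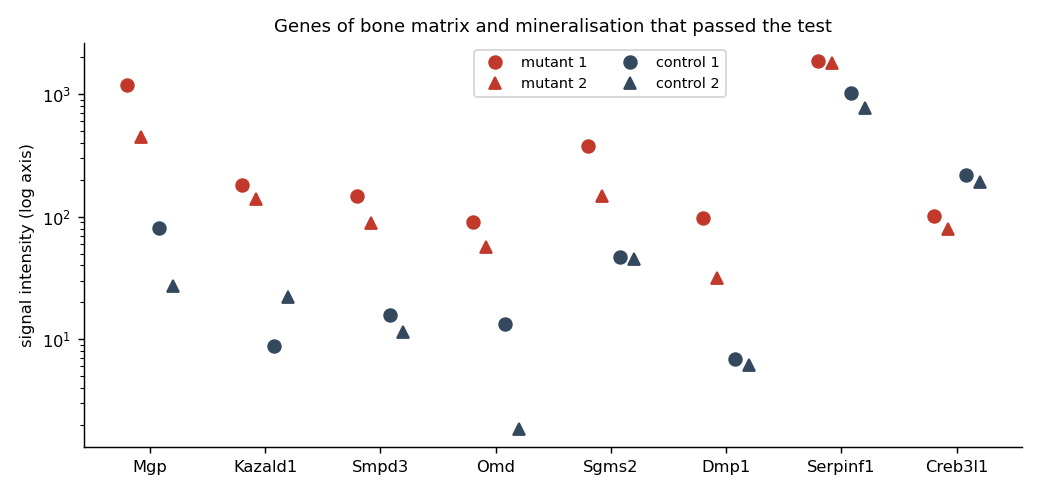
Signal intensity (log axis) of the 8 genes of bone matrix and mineralisation that passed the test, on each array; mutants in red, controls in dark blue, circles for sample 1 and triangles for sample 2. The mutants lie above the controls for Mgp, Kazald1, Smpd3, Omd, Sgms2, Dmp1 and Serpinf1 and below them for Creb3l1, and the gap between the mutants is wide for Mgp, Sgms2 and Dmp1 and narrow for Serpinf1.

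Regulators of the osteoblast lineage went both ways. Of 32 on the list, 29 have a probe set of their own and 23 were tested. There were 8 that rose and 3 that fell, where 4.96% and 3.78% of all genes tested did, and the other 12 missed the threshold. The median log2 fold change of the 23 was 0.56, and that of all genes tested was -0.02. Among the 8 was Zfp521, named after its values were seen (log2 fold change 0.56, limma adjusted p = 0.0374). It did not pass without the filter or without the variance trend (adjusted p = 0.0747 and 0.0907). Its call also ended without control sample 2, mutant sample 1 or mutant sample 2, with log2 differences of 0.47, 0.50 and 0.61. Bmp4, also named after its values were seen, rose by 0.79 (adjusted p = 0.0129). Without mutant sample 2 its log2 difference was 0.68 and its call ended. The homeobox genes Msx2, Msx1 and Dlx3, which act in the osteoblast lineage and also in the hair follicle and other epithelia, had the largest rises. Msx2 read 446 and 428 in the mutants and 18.2 and 23.5 in the controls (log2 fold change 3.97, SE 0.17, adjusted p = 0.000121). Msx1 rose by 3.49 (adjusted p = 0.000220) and Dlx3 by 2.42 (adjusted p = 0.00129). The ligand gene Bmp2, an inducer of bone formation, read 517 and 569 in the mutants and 168 and 86.2 in the controls (log2 fold change 2.10, SE 0.28, adjusted p = 0.00802). None of the 23 regulators was at least 2-fold apart between the mutants, and their median log2 difference, mutant sample 1 minus mutant sample 2, was 0.10. Tnfrsf11b, osteoprotegerin, a decoy that restrains osteoclasts, was the regulator with the widest gap, and mutant sample 2 was the higher, with 70.8 and 127 in the mutants and 22.2 and 17.9 in the controls (log2 fold change 1.89, adjusted p = 0.0143).

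The 3 regulators that fell were Twist2, Twist1 and Pth1r, of which Twist1 and Pth1r were named after their values were seen. Twist2, a mesenchymal factor that restrains osteoblast differentiation, read 624 and 895 in the mutants and 2083 and 2178 in the controls (log2 fold change -1.50, adjusted p = 0.00475). Its relative Twist1 had a log2 fold change of -1.27 (adjusted p = 0.00265). Pth1r, the parathyroid hormone receptor of osteoblasts, had one of -1.26 (adjusted p = 0.00603). Spiked-in poly-A RNA was lower in the mutants by 1.16 on the log2 scale. On a scale set by these spikes the median log2 fold change of all tested probe sets was 1.09, Twist2, Twist1, Pth1r and Creb3l1 did not pass, and the median of the 6 osteoblast probe sets was 3.19 in place of 2.22.

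Markers of other tissues that skin dissections can hold moved in different ways. Of 9 osteoclast genes tested 1 rose and 1 fell, where 4.96% and 3.78% of all genes tested did. The median of the 9 was 0.10. Mmp9, a gelatinase of osteoclasts and of many other cells, rose by 2.19 (adjusted p = 0.00481). Ctsk, the collagen-degrading cathepsin of osteoclasts, had a log2 fold change of -0.48 (adjusted p = 0.0411), a call that ended whichever array was left out (adjusted p = 0.0654 to 0.200) and when either the filter or the variance trend was dropped (adjusted p = 0.0753 and 0.100), and it was positive on the spike scale (0.66). Nfatc1 and Itgb3, both needed by osteoclasts, did not pass, with 0.25 (adjusted p = 0.589) for Nfatc1 and 0.06 (adjusted p = 0.917) for Itgb3 on the log2 scale. Macrophage genes rose in 7 of 11 tested, where 4.96% of all genes tested did, with a median of 0.70. C1qc, C1qa and C1qb of complement and the lysozyme gene Lyz2 rose by 1.05, 0.97, 0.87 and 1.02. The summed signal of the macrophage list was 5751 and 6551 in the mutants and 4034 and 3184 in the controls. The calls of C1qa, C1qb, Lyz2 and of the mannose receptor gene Mrc1 (log2 fold change 0.67) ended when mutant sample 2 was left out (adjusted p = 0.0558, 0.0721, 0.0585 and 0.143). That of C1qa also ended without mutant sample 1 (adjusted p = 0.0529), and that of Mrc1 without control sample 2 (adjusted p = 0.0973). None of these 4 passed without the filter or without the variance trend (adjusted p = 0.0542 to 0.0869). The fractalkine receptor gene Cx3cr1 did not pass (log2 fold change 0.38, adjusted p = 0.312).

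Skeletal muscle genes fell in 4 of 13 tested, where 3.78% of all genes tested did, with a median of -1.22. Their summed signal was 7343 and 4229 in the mutants and 13398 and 10043 in the controls. The called members were the myosins Myh3 and Myh8, titin and desmin (Ttn and Des), with log2 fold changes of -1.58, -1.10, -1.48 and -0.85, and on the spike scale none of these 4 passed, Myh3 and Ttn at -0.43 and -0.35 (adjusted p = 0.243 and 0.354) and Myh8 and Des with the sign turned. Myh3, Ttn and Des did not pass when dim probe sets were kept (adjusted p = 0.0614, 0.0882 and 0.0533). Nor did Myh3 and Ttn with the variance trend off or robust (adjusted p = 0.0520 to 0.0782). The call of Ttn ended without either control (adjusted p = 0.0693 and 0.0550) and that of Des without control sample 2 (adjusted p = 0.0712) or either mutant (adjusted p = 0.120 and 0.0618). Ckm and Tnnt3, of muscle energy supply and contraction, had the widest gaps between the mutants, with 84.0 and 20.6 for Ckm and 129 and 37.9 for Tnnt3 in the mutants, against 172 and 160 for Ckm and 200 and 174 for Tnnt3 in the controls. Of 6 tendon genes tested 2 rose, where 4.96% of all genes tested did. These were tenomodulin (Tnmd, log2 fold change 2.64, adjusted p = 0.0221) and the homeobox gene Mkx (2.25, adjusted p = 0.00479). Tnmd did not pass without the filter, without the variance trend or with a robust trend (adjusted p = 0.0594, 0.0528 and 0.128), and its value was 3.45 without control sample 1 and 1.84 without control sample 2. The small proteoglycan genes Kera and Fmod did not pass, with -1.16 for Kera (adjusted p = 0.194) and 0.62 for Fmod (adjusted p = 0.460), and were at least 2-fold higher in mutant sample 1 than in mutant sample 2. No tooth gene passed the filter. The tooth genes given here were named after their values were seen, and they went both ways. The enamel matrix gene Ambn read 47.1 and 43.0 in the mutants and 3.66 and 8.60 in the controls, with no overlap. The enamel matrix gene Enam read 1.83 and 6.24 in the mutants and 1.31 and 1.75 in the controls. Odam was lower in both mutants, with 3.18 and 0.901 against 7.05 and 4.90 in the controls.

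Genes of the dermal condensate, the fibroblast cluster below each hair placode and the forerunner of the dermal papilla, rose in 5 and fell in 3 of 17 tested, with a median log2 fold change of 0.77. Over all genes tested, 4.96% rose and 3.78% fell. Foxd1, a forkhead factor, rose by 2.47, and the Wnt inhibitor genes Wif1 and Dkk2 by 2.12 and 1.88, while Crabp1, a retinoic acid binding protein, fell by 2.58 on the log2 scale. Wif1 and Corin had the widest gaps between the mutants, and mutant sample 2 was the higher in both, with 1635 and 2351 for Wif1 and 41.3 and 59.2 for Corin. Between the mutants the list had a median log2 difference of 0.01, mutant sample 1 minus mutant sample 2. The part of macrophage, muscle, tendon and dermal condensate RNA in the osteoblast signals was not tested.

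**Figure D4:**
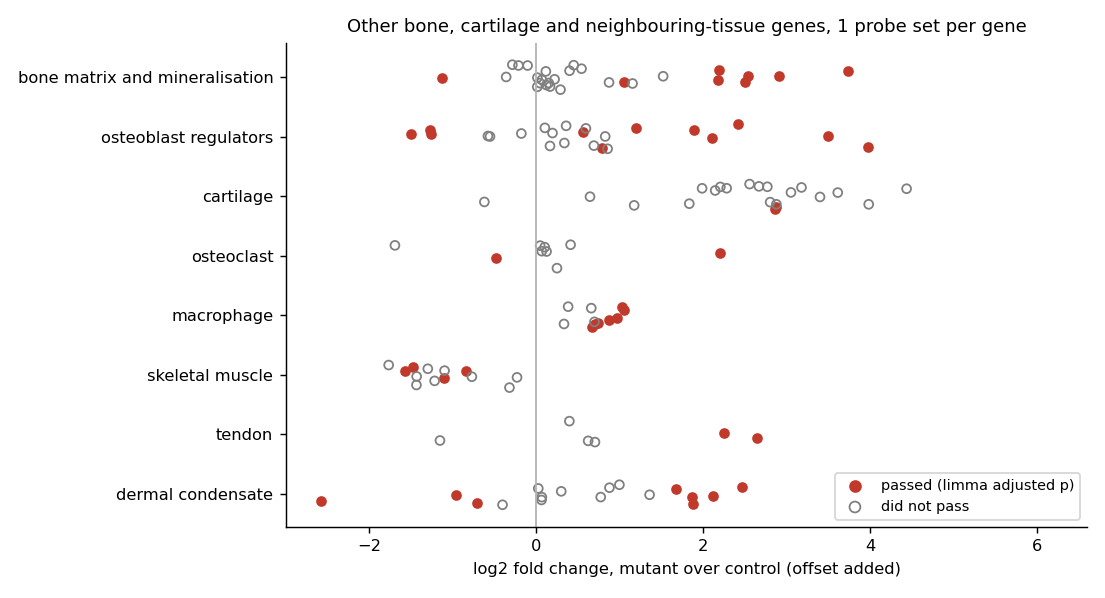
Log2 fold change of mutant over control skin for the tested genes of 8 lists, 1 point per gene and 1 probe set each; filled points passed limma's adjusted threshold and open ones did not. Cartilage genes lie mostly between 2 and 4, all but 2 of them open, bone matrix genes run from -1.13 (Creb3l1) to 3.74 (Mgp), and muscle genes lie to the left of 0.

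The genes with the closest pattern over the 4 arrays were found by the Euclidean distance of log2 signals after each probe set's mean was subtracted, among 11549 genes. For Ibsp they were Gm10228 (distance 0.14), Krtap6-5 (0.37) and Krtap3-1 (0.46), and both Krtap genes encode keratin-associated proteins of the hair shaft. Krtap6-5 read 957 and 360 in the mutants and 7.35 and 2.71 in the controls. For Sp7 they were Irs4 (0.14), an insulin receptor substrate, C1qtnf3 (0.17), which encodes a secreted C1q-like protein, and the homeobox gene Dlx3 (0.18). For Alpl they were the matrix gene Tnc (0.18), the Wnt modulator gene Sfrp2 (0.20) and the matrix gene Tgfbi (0.20). For Phex they were Mab21l2 (0.29), Golga7b (0.54) and Gas2 (0.58). With 4 arrays in 2 groups such a distance mostly ranks the size of the group difference and of the gap between the mutants.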

How the data were processed

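Signals came from 4 arrays, 2 of mutant and 2 of control skin. The value table holds the authors' deposited signal intensity of each probe set and array on a linear scale, for which GCOS and MAS5 are named, per the submitters' processing notes; versions and the scaling target are not given in the sources used here, and no detection calls were used. The authors' deposited table of changed probe sets gives a fold, the ratio of mutant over control, after filters for presence, an uncorrected test and size, per the file headers, which name GCRMA. The mean of its 2 mutant ratios, not divided by the control ratios, gave the fold within 10% in 3 of 170 rows. Apart from the Alpl row above, the per-sample ratios were used for nothing else. Scanner settings (other values per the file headers) were read only for sample type and station.

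Probe sets were named from the platform annotation, with symbols updated by gene identifier (GRCm38.p6 gene table): 34945 matched 1 gene, 932 several, and 9160 are unnamed here. Log2(signal + 7.71) was used, the offset being percentile 25 of all values, which shrinks the changes of dim genes. The 22519 probe sets with a mean of at least 31.1 were tested with limma 3.58.1 in R 4.3.3 (two-sided moderated test, variance trend on, Benjamini-Hochberg over all tested, threshold 0.05). A gene dim in 1 group can pass the filter through the other, which favours changes in the counts. Each gene was represented by its brightest tested probe set.

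The 7 symbols and the gene lists were chosen with earlier results of these data known. The genes named were all probe sets of the osteoblast genes, in each list the 4 called genes, or fewer, that changed most (2 if no gene was called), the 2 with the widest gap between the mutants, Ctnnb1 and Krt14, and the 3 nearest patterns; genes chosen otherwise are said to be. The labels do not say that equal sample numbers pair the embryos, and with 2 pairs this could not be settled. Spreads are between 2 embryos per group, so the number of arrays limits the precision. The fit was also run on simulated data with independent noise and the same shift in both mutants. These arrays differ from that setting, so the run does not bear on the gap between the mutants. Alternatives covered the offset, scaling, filter, variance model, block and each array left out.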

Additional observations from a re-analysis of the deposited data

How the results depend on the processing

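All 6 osteoblast probe sets stayed higher in mutants than in controls under every alternative tried (offsets, quantile and spike scaling, each array left out). For offsets and left-out arrays this was fixed in advance, since both mutants lay above both controls in all 6. Spike scaling raised the mutants relative to the controls, so it could hardly turn a sign either. The median log2 difference of the 6 was 2.22, between 1.83 and 2.62 with 1 array left out, and 3.19 on the poly-A spike scale. The median difference between the mutants, 0.76, lay between 0.67 and 0.87. The count of probe sets called, 1583 (923 higher, 660 lower), was 20278 (20130 higher, 148 lower) on the spike scale, 880 without the filter, 2443 with the replicate block, and 982 to 2171 with 1 array left out. The count of bone matrix and mineralisation genes called, 8, was 27 on the spike scale (27 higher), 5 without the filter, 15 with the replicate block, and 7 to 11 with 1 array left out. The deviations of equally numbered samples correlated with r = 0.16 across tested probe sets, so the block is a hint from the numbers only. Signs turned on the spike scale for Ctsk (0.66), Myh8 (0.00936) and Des (0.23), and with quantile normalization for Itgb3 (-0.00877). With 1 array left out, values ran from -0.15 to 5.68 for Col10a1 and -0.0851 to 0.58 for Nfatc1, both lowest without mutant sample 1, and from -0.16 to 0.29 for Itgb3, lowest without control sample 2 and -0.13 without mutant sample 2. No cause of these changes was tested. Dim signals, without detection calls, limit Ibsp, Dmp1, Omd, Kazald1 and Smpd3 in controls, the second Phex probe set, Mepe, Dspp and the tooth genes.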
